A study of Mus musculus with 12 samples.

Results

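Prostatic fluid secretory genes were followed here, 9 in number: Sbp, Sbpl, Msmb, Pbsn, Tgm4, Azgp1, Apof, Gsdma and Mme. They were taken by name from the 23284 genes of the deposited table, and all 9 were among the 15096 genes that passed the filter on low values and were tested. The aim of the comparison was to set those that were strongly lost from null prostate beside those that were retained. Prostate tissue came from 4-month-old mice of a hybrid 129/SvImJ and C57Bl/6J background, either wild-type (+/+) or carrying the null allele on both chromosomes (-/-), the null mice of this text. Each genotype had 6 libraries of poly-A selected RNA. The labels name neither the lobes taken nor a cell type in which the allele is null, and they give no animal for any library. The p-values therefore rest on the variation among the sequenced libraries, part or all of which may be technical.

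The mouse prostate consists of anterior, dorsal, lateral and ventral lobes, whose luminal epithelial cells release lobe-specific mixtures of proteins into the seminal fluid. As background, Sbp (spermine-binding protein) is a product of the ventral lobe, Msmb (beta-microseminoprotein) of the lateral lobe and Pbsn (probasin, a lipocalin controlled by androgen) of the dorsal and lateral lobes. Tgm4, the prostate transglutaminase, is made in the anterior lobe or coagulating gland and in the dorsal lobe, and cross-links seminal vesicle proteins into the copulatory plug. Sbpl is a paralog of Sbp beside it on the same chromosome. Azgp1 encodes zinc-alpha-2-glycoprotein, a secreted relative of MHC class I heavy chains, and Apof encodes the secreted apolipoprotein F. Gsdma and Mme sit less well under the name of fluid proteins. Gasdermin A belongs to a family of intracellular pore-forming proteins, and Mme (neprilysin) is a membrane-bound peptidase with its active site outside the cell.

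Promoter sequences are shown for 3 of the strongly lost genes and for Tgm4, the retained gene with a well-established lobe of origin, so that the letters before their start sites can be read beside their different behaviour. Each is the 250 bases before a RefSeq start, on build GRCm38.p6, printed 5' to 3' in the direction of the gene. In the printed direction, the 20 bases that follow the start lay in the gene's own GENCODE M21 transcripts for Sbp, Pbsn and Tgm4. For Tgm4 they also opened a transcript, while for Sbp and Pbsn the match to an opening ended after 2 bases and 1 base. For Sbpl, whose leading exon is short, the 11 bases that follow the start matched the opening of its transcript and the bases beyond did not. These coordinates differ from those of mm9, the build named in the submitters' processing notes. The windows are chr17:23941428-23941677 on the plus strand for Sbp, chr17:23955274-23955523 on the minus strand for Sbpl, chrX:77853501-77853750 on the minus strand for Pbsn and chr9:123034491-123034740 on the plus strand for Tgm4. Capitals mark the core letters AGAACA of an androgen response element (as AGAACA or TGTTCT) and the TATA box letters TATAAA. Each motif was searched on both strands, and every TATAAA match in these windows lay in the direction of the gene.
Sbp: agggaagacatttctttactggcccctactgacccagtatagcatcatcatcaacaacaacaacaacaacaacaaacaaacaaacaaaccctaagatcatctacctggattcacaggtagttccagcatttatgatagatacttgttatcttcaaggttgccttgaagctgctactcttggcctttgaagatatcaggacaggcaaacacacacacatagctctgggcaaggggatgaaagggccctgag
Sbpl: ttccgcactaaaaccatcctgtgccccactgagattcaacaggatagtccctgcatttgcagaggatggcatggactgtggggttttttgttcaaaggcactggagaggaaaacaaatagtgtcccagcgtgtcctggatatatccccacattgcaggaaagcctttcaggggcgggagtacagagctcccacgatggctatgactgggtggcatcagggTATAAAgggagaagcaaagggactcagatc
Pbsn: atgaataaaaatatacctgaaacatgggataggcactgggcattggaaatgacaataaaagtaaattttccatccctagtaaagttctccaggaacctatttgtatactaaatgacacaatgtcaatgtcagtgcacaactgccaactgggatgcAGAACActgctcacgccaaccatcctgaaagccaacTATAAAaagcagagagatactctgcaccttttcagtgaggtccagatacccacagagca
Tgm4: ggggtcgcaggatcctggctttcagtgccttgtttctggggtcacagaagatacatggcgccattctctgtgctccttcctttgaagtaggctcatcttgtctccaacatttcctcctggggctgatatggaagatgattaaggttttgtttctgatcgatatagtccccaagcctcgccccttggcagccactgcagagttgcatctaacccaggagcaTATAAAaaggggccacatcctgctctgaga

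In the Pbsn window AGAACA stood 95 to 90 bases and TATAAA 59 to 54 bases before the start. Tgm4 and Sbpl each held TATAAA 30 to 25 bases before their starts and no AGAACA. The Sbp window printed here held neither. A further RefSeq start of Sbp, downstream of this one, had TGTTCT 64 to 59 bases before it. The 50 bases after that further start opened a GENCODE M21 transcript of Sbp, against 2 after the printed start. The window of another Sbp start, upstream, held neither motif. The absence of AGAACA therefore holds for the printed window and not for every start of Sbp. On either strand, AGAACA was present in 16.1% of 32851 RefSeq promoter windows of this length and TATAAA in 12.4%, so neither is rare. Matches are given as letters in a window and not as bound sites. Azgp1 and Mme also had promoter entries, without a match to either motif, and Msmb, Apof and Gsdma were not matched in the promoter table.

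Deposited values were on a log2 scale, and genes that are not expressed scattered around a floor. Over 1123 olfactory receptor genes the median was 2.85 and the 95th percentile 3.51. The files hold no read totals and the depth is unknown. Within each genotype the libraries fell into sets of 3, described earlier from these data: wild-type 1 to 3 and 4 to 6, and null 1, 2 and 5 and null 3, 4 and 6. Among the 3633 genes whose mean reached 10, a pair of wild-type libraries had a median difference of 0.056 inside a set and of 0.109 between sets. For null libraries it was 0.066 and 0.144, against 0.228 between genotypes. Null library 5 lay within a median of 0.0296 of the equal mix of null libraries 1 and 2, and null library 6 within 0.0293 of the mix of null libraries 3 and 4. For this reason the result of each of the 9 genes and the counts of each list are given over the 12 libraries and, as a second value, over the means of the 4 sets.

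Of the 9 genes, 5 were lower and 2 higher in null prostate and 2 were not called (limma, Benjamini-Hochberg adjusted p under 0.05 over all tested genes). Over set means 4 were lower and 0 higher. The background is large: 25.1% of all tested genes were called lower and 28.0% higher over 12 libraries, and 6.96% lower and 7.58% higher over set means. Strongly lost was defined as called with a log2 difference of -2 or below, which held for 4 genes, Sbp, Msmb, Sbpl and Pbsn, and for 1.01% of all tested genes. The other 5, Tgm4, Azgp1, Apof, Gsdma and Mme, were retained, with a log2 difference between -1 and 1, as were 92.9% of all tested genes. The 4 strongly lost genes were those without overlap between the 6 wild-type and 6 null libraries, a property of 32.6% of all tested genes. The median difference of the 9 genes was -0.39, beside 0.01 over all tested genes. Pbsn, at -2.15, was the gene just inside the limit of strong loss, and Tgm4, at -0.39, the next outside it.

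**Figure D1:**
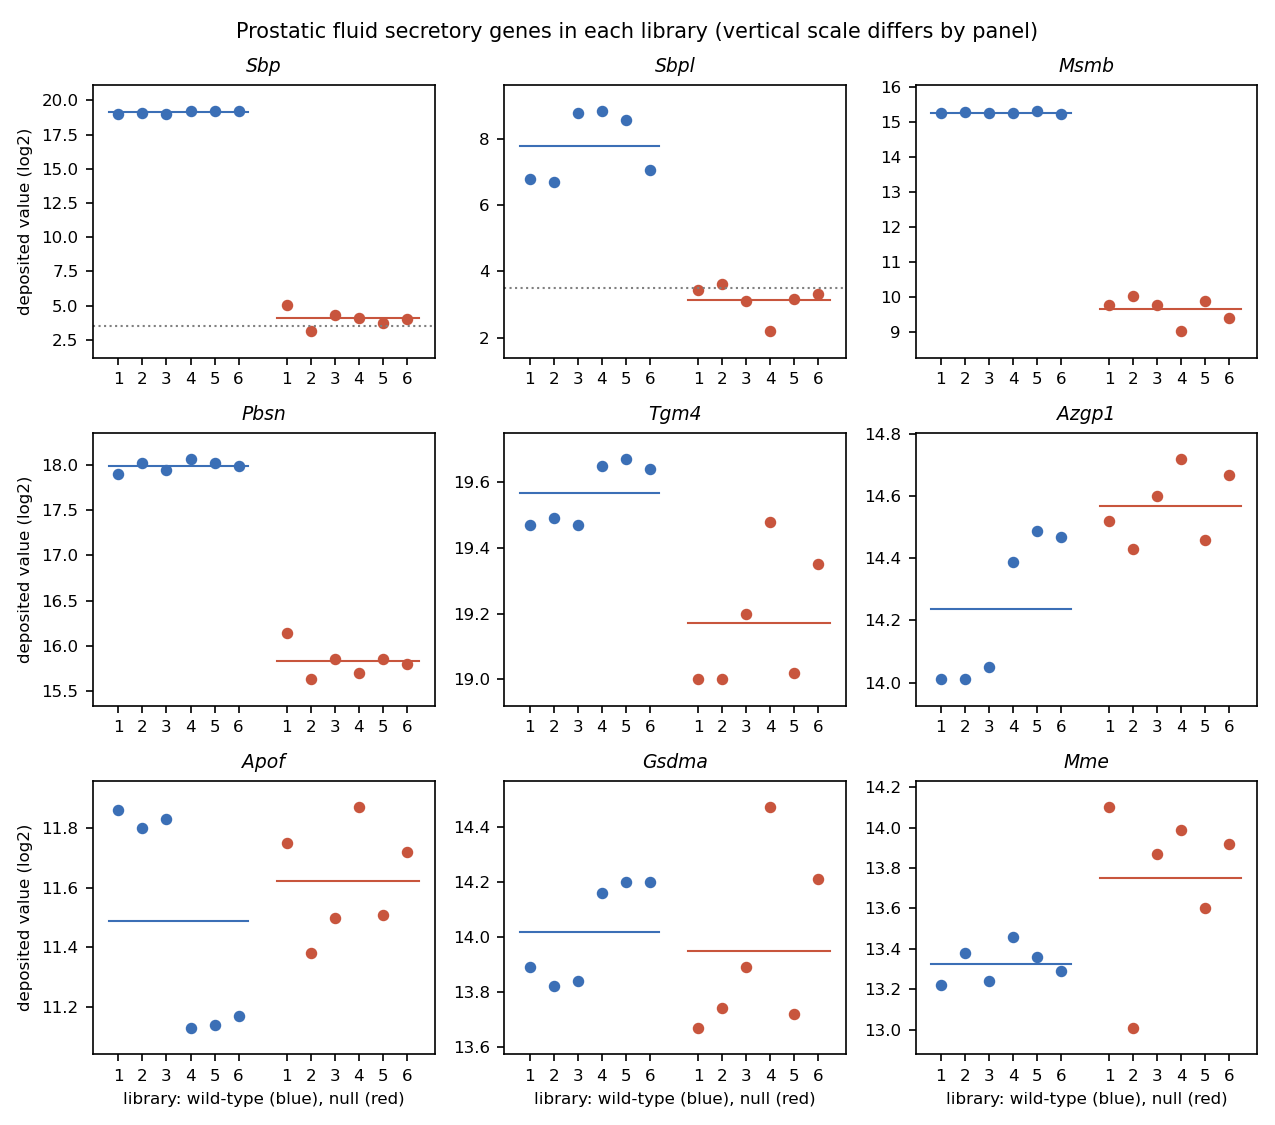
Deposited log2 value of each gene in wild-type libraries 1 to 6 (blue) and null libraries 1 to 6 (red), with group means as lines and, for Sbp and Sbpl, the 95th percentile of olfactory receptor genes (3.51) as a dotted line. Sbp, Sbpl, Msmb and Pbsn do not overlap between genotypes, while the other 5 genes do; the vertical scale differs by panel.

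Sbp, which encodes a polyamine-binding glycoprotein of prostatic fluid, had the largest fall of all 15096 tested genes. Its log2 values in wild-type libraries 1 to 6 were 19.00, 19.07, 19.00, 19.21, 19.23 and 19.20, and in null libraries 1 to 6 they were 5.06, 3.13, 4.34, 4.12, 3.74 and 4.04. Every null library lay far below every wild-type library, with 13.93 between the lowest wild-type and the highest null value. The mean went from 19.12 ± 0.11 (SD, n = 6) to 4.07 ± 0.64 (SD, n = 6), a log2 difference of -15.04 with a 95% interval of -15.59 to -14.50 (limma adjusted p = 8.8e-13, and 9.26e-07 over set means). Of the 6 null libraries, 5 were above the 95th percentile of olfactory receptor genes and null library 2, at 3.13, was below it. Because the null values are this near the floor, the difference is limited by the floor and is not turned into a fold.

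Msmb encodes a small cysteine-rich protein abundant in semen. Wild-type libraries 1 to 6 stood at log2 values of 15.26, 15.28, 15.26, 15.24, 15.31 and 15.21, and null libraries 1 to 6 at 9.76, 10.03, 9.76, 9.02, 9.87 and 9.41. The wild-type libraries were within 0.10 of each other, the null libraries spread over 1.005, and the nearest values of the 2 genotypes were 5.19 apart. The mean fell from 15.26 ± 0.03 (SD, n = 6) to 9.64 ± 0.37 (SD, n = 6), by 5.62 on the log2 scale (interval -5.91 to -5.33, limma adjusted p = 1.58e-12, and 0.000242 over set means). Taken back to the linear scale, the null level was 2.04% of the wild-type level. Unlike Sbp, Msmb stayed far above the floor in all 6 null libraries.

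Pbsn, whose promoter is widely used to drive transgenes in prostate epithelium, fell least among the strongly lost genes. Its wild-type libraries 1 to 6 had log2 values of 17.90, 18.02, 17.94, 18.06, 18.02 and 17.99. Null libraries 1 to 6 had 16.14, 15.63, 15.86, 15.70, 15.86 and 15.80, so null library 1 was the highest and still 1.76 below the lowest wild-type library. The mean changed from 17.99 ± 0.06 to 15.83 ± 0.18 (SD, n = 6 each), a fall by 2.15 on the log2 scale (interval -2.32 to -1.99, limma adjusted p = 3.85e-11, and 0.00257 over set means). On the linear scale 22.5% of the wild-type level remained. The intervals of Sbp, Msmb and Pbsn did not overlap, so losses within this group were of unequal size.

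Sbpl, the paralog of Sbp, was the strongly lost gene with the widest spread between wild-type libraries. Its log2 values were 6.79, 6.70, 8.76, 8.83, 8.56 and 7.05 in wild-type libraries 1 to 6, against 3.43, 3.61, 3.103, 2.20, 3.17 and 3.32 in null libraries 1 to 6. Wild-type libraries 3, 4 and 5 were the higher ones and 1, 2 and 6 the lower ones, and all lay at least 3.096 above the null libraries. Only null library 2 was above the 95th percentile of olfactory receptor genes, so the null values were at the floor. The mean went from 7.78 ± 1.03 to 3.14 ± 0.50 (SD, n = 6 each), a log2 difference of -4.64 (interval -5.56 to -3.73, limma adjusted p = 1.24e-06, and 0.00243 over set means), again limited by the floor.

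Sbp and Sbpl share much of their sequence. In GENCODE M21 transcripts, 52.0% of the 25-base stretches of Sbpl and 38.9% of its 50-base stretches also occurred in Sbp, while 29.3% and 20.5% of those of Sbp occurred in Sbpl. The sources used here do not state how reads that fit both were counted. Sbpl held 0.000579% to 0.00239% of the summed linear values of a wild-type library, beside 2.88% to 3.17% for Sbp. Part or all of the Sbpl signal in wild-type libraries could therefore not be assigned with certainty. In those libraries Sbp itself varied by only 0.24 from lowest to highest, while Sbpl varied by 2.12. Neighbouring genes, chosen after the values were seen, were at much lower values. Dcpp1, Dcpp2 and Dcpp3 on the near side reached no more than 3.63 in any library and were not tested. On the far side, the protease gene Prss22 went from 4.74 to 4.04 (log2 difference -0.70, limma adjusted p = 0.00414, and 0.117 over set means).

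The exact 2-sided permutation test of single genes over the 12 libraries gave p = 0.00216, the smallest its 924 arrangements allow, for each of Sbp, Sbpl, Msmb and Pbsn (adjusted p = 0.00664 over all tested genes). These 4 were called under each of the 24 alternatives listed in the closing section.

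**Figure D2:**
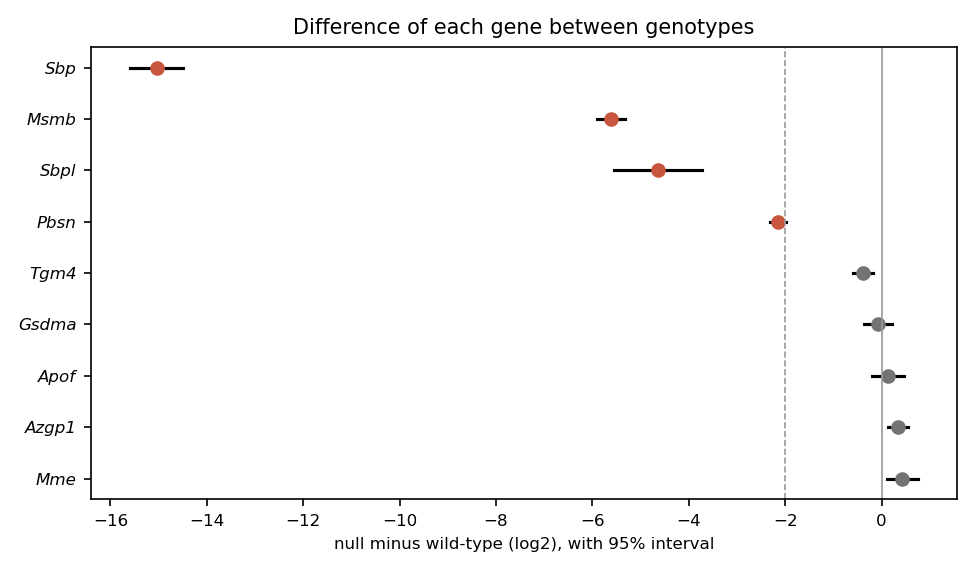
Null minus wild-type difference of each gene on the log2 scale, with the 95% interval over 12 libraries (black line); the dashed line is the limit of strong loss at -2. The 4 strongly lost genes (red) lie between -15.04 and -2.15 and the 5 retained genes (grey) between -0.39 and 0.42.

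Tgm4 was among the retained genes, with a small difference. In wild-type libraries 1 to 6 it had log2 values of 19.47, 19.49, 19.47, 19.65, 19.67 and 19.64, and in null libraries 1 to 6 values of 19.00, 19.00, 19.20, 19.48, 19.02 and 19.35. The genotypes overlapped by 0.01, at null library 4, and wild-type libraries 4 to 6 were all higher than 1 to 3. The mean went from 19.57 ± 0.10 to 19.17 ± 0.20 (SD, n = 6 each), a fall by 0.39 on the log2 scale (interval -0.60 to -0.19) that was called over 12 libraries (limma adjusted p = 0.00291) and not over set means (adjusted p = 0.285). The null level was 76.2% of the wild-type level on the linear scale. After quantile normalization the difference was -0.12 and was not called (adjusted p = 0.413).

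Azgp1, which encodes a lipid-mobilising plasma and seminal protein, had a small difference in the other direction. Wild-type libraries 1 to 6 had log2 values of 14.01, 14.01, 14.05, 14.39, 14.49 and 14.47, and null libraries 1 to 6 had 14.52, 14.43, 14.60, 14.72, 14.46 and 14.67. Wild-type libraries 5 and 6 reached the null range and 1 to 4 did not. The wild-type sets differed by 0.42, more than the genotypes. The difference was 0.33 (interval 0.12 to 0.54, limma adjusted p = 0.0102, and 0.272 over set means). Without wild-type libraries 1 to 3 it was 0.12 and was not called (adjusted p = 0.23). Leaving out wild-type libraries 4 to 6 in turn gave 0.54 (limma adjusted p = 0.000145).

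Mme, which encodes the peptidase neprilysin, rose by a similar amount over 12 libraries. Its log2 values were 13.22, 13.38, 13.24, 13.46, 13.36 and 13.29 in wild-type libraries 1 to 6 and 14.10, 13.01, 13.87, 13.99, 13.60 and 13.92 in null libraries 1 to 6. Null library 2 was the lowest of all 12 libraries and the other 5 null libraries were above all wild-type libraries. The difference was 0.42 (interval 0.10 to 0.75, limma adjusted p = 0.0277, and 0.13 over set means). The exact permutation test gave p = 0.0346 and adjusted p = 0.0642, and the gene was called under 10 of 24 alternatives. Without null library 2 the difference was 0.57 (adjusted p = 4.4e-05).

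Apof and Gsdma were not called. Apof had log2 values of 11.86, 11.80, 11.83, 11.13, 11.14 and 11.17 in wild-type libraries 1 to 6 and of 11.75, 11.38, 11.50, 11.87, 11.51 and 11.72 in null libraries 1 to 6. Null library 4 lay just above every wild-type library, and the other null libraries fell in the gap between the wild-type sets, which stood 0.68 apart. The difference between genotypes was 0.13, with an interval from -0.20 to 0.47 (limma adjusted p = 0.492, and 0.736 over set means). Gsdma had 13.89, 13.82, 13.84, 14.16, 14.20 and 14.20 in wild-type libraries 1 to 6, and 13.67, 13.74, 13.89, 14.47, 13.72 and 14.21 in null libraries 1 to 6. Null libraries 4 and 6 were high and the other 4 null libraries were at or near the lower wild-type set. Its difference was -0.07, with an interval from -0.36 to 0.22 (limma adjusted p = 0.693, and 0.849 over set means). A p that misses the threshold does not show that either gene was unchanged.

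Leaving out a wild-type set moved Apof and Gsdma by more than their difference between genotypes, and for Gsdma leaving out a null set did so too. Without wild-type libraries 1 to 3 Apof was higher in null prostate by 0.47 (limma adjusted p = 0.00239). Its difference was -0.21 when wild-type libraries 4 to 6 were left out (limma adjusted p = 0.107). Without null libraries 3, 4 and 6 Gsdma had a difference of -0.31 (adjusted p = 0.0191), and without null libraries 1, 2 and 5 its difference was 0.17 (adjusted p = 0.314). What separates the sets was not tested. For Tgm4 the difference was -0.22 without null libraries 1, 2 and 5 and -0.56 without null libraries 3, 4 and 6. With any 1 set left out, Sbp stayed between -15.14 and -14.95, Msmb between -5.86 and -5.37 and Pbsn between -2.20 and -2.11.

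On the linear scale the 9 genes together held 8.73% to 9.35% (median 9.16%) of the summed values of a wild-type library and 3.13% to 4.10% (median 3.66%) of a null library. Values are not per transcript length, so these are shares of the signal and not of molecules. Tgm4 took 4.01% to 4.31% in wild-type and 2.63% to 3.50% in null libraries, and was the largest part in every library. Sbp took 2.88% to 3.17% in wild-type libraries and no more than 0.000183% in null libraries. Pbsn went from 1.35% to 1.47% down to 0.256% to 0.396%. Of the 3 genes that each held over 1% in wild-type libraries, Tgm4 alone did so in null libraries.

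**Figure D3:**
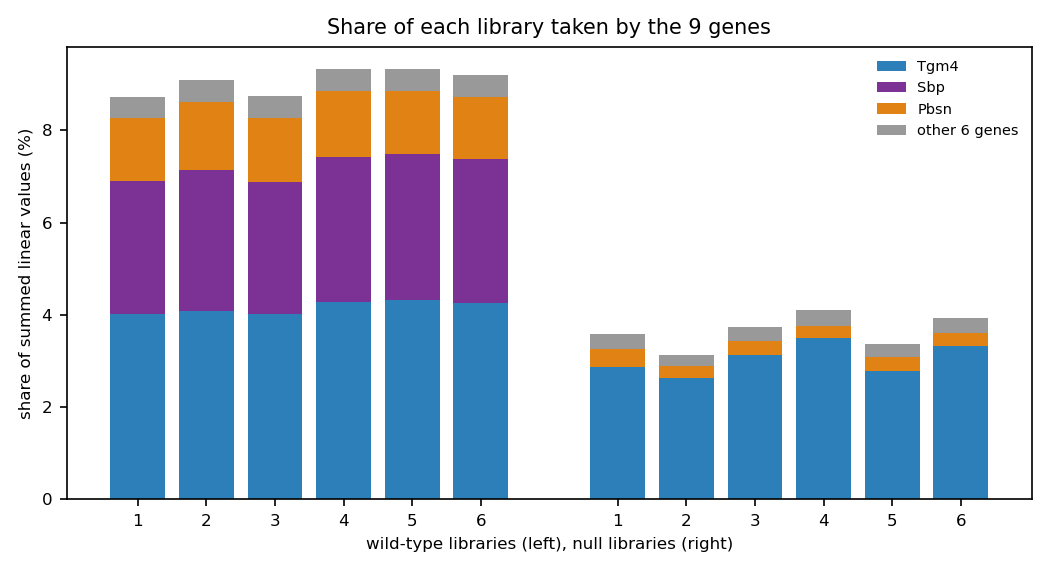
Share of the summed linear values of each library (%) held by Tgm4, Sbp, Pbsn and the other 6 genes, as stacked bars for wild-type libraries 1 to 6 (left) and null libraries 1 to 6 (right). The 9 genes together reach 8.73% to 9.35% in wild-type and 3.13% to 4.10% in null libraries, where the Sbp part is too small to see.

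Other secretory products of the prostate moved in both directions. Of 10 listed genes 9 were tested, of which 5 were higher and 4 lower in null prostate, with 3 higher and 3 lower over set means and a median of 0.61. Wfdc3, a whey-acidic-protein family member, fell from 13.47 ± 0.52 to 10.10 ± 0.33, by 3.36 on the log2 scale (SD, n = 6 each, limma adjusted p = 2.01e-07). Acpp, the prostatic acid phosphatase, fell by 1.66 from 8.32 ± 0.20 (SD, n = 6, limma adjusted p = 1.38e-08). Clu, the secreted chaperone clusterin, rose by 2.07 from 12.46 ± 0.12 (SD, n = 6, limma adjusted p = 4.13e-10). In each of these the libraries of the 2 genotypes did not overlap, and each was called over set means too. They were named for the lowest adjusted p of the list, and 32.6% of all tested genes had no overlap. Among the genes called higher, Wfdc15b (6.59) and Defb42 (2.03) were near the floor in wild-type libraries, with means of 3.83 and 3.93. Defb42 reached 8.68 and 7.94 in null libraries 2 and 5, against 4.39 to 4.91 in the other null libraries.

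Genes of the machinery that moves proteins into and through the secretory pathway were counted next. Of 24 listed genes, 3 were higher, 7 lower and 14 not called, with a median of 0.03, and over set means 2 were lower and 0 higher. The share called was below the background given above in the upward direction (28.0%) and near it in the downward direction (25.1%). Creb3l4, a membrane-bound transcription factor of the secretory pathway that is abundant in prostate, went from 8.78 ± 0.06 to 7.35 ± 0.22 (log2 difference -1.43, SD, n = 6 each, limma adjusted p = 1.26e-08). Kdelr3 and Kdelr1, receptors that return escaped proteins to the endoplasmic reticulum, had differences of -0.83 and -0.38 (limma adjusted p = 1.36e-06 and 1.65e-05). Of these 3, Kdelr1 was not called over set means (adjusted p = 0.0679).

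Relatives of the 9 genes by protein family were counted in the same way, with few tested genes in each family. Of all tested genes 25.1% were called lower and 28.0% higher over 12 libraries. Over set means these shares were 6.96% and 7.58%. Of 4 tested transglutaminases other than Tgm4, 3 were lower and 1 was not called, F13a1 (the clotting factor XIII A chain) at -0.83, Tgm1 at -0.65 and Tgm2 at -0.22, of which F13a1 alone was called over set means (adjusted p = 0.0312). Of 4 tested lipocalins, the family of probasin, Orm1 was higher by 1.87 from a level at the floor and Apod differed by -1.17, both also called over set means, while 2 were not called. Among 6 tested gasdermins 2 were lower, Gsdmd at -1.65 and Gsdmc3 at -0.61, and 4 were not called. Gsdmc3 was not called over set means (limma adjusted p = 0.226), which left 1 gasdermin. Of 4 tested relatives of Mme in the M13 peptidase family, Kel differed by -3.60, Ece2 by -0.46 and Ece1 by 0.33, and 1 was not called. The null values of Kel, 3.70 to 4.59, were close to the floor, which limits its difference. Over set means Kel alone was called, while Ece2 and Ece1 were not (limma adjusted p = 0.113 and 0.138). Among 6 tested apolipoproteins Apol6 (0.78) and Apoh (0.79) were higher, Apom (-0.44) was lower and 3 were not called, with 0 called over set means. Apoh (wild-type mean 3.49) and Apom (null mean 3.89) were close to the floor.

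Genes related to Azgp1 showed the largest contrast within a family. Of 8 tested MHC class I-like genes 4 were higher, 2 lower and 2 not called, and over set means 2 were higher and 1 lower. H2-Q10, a secreted class I molecule, went from 11.14 ± 0.23 to 3.97 ± 0.38, a log2 difference of -7.17 (SD, n = 6 each, limma adjusted p = 4.34e-13, and 0.000223 over set means) with null values of 3.44 to 4.36 close to the floor. B2m, the light chain shared by class I molecules, rose by 1.91 from 15.43 ± 0.07 (SD, n = 6, limma adjusted p = 1.58e-12), and Mr1 rose by 0.86 (adjusted p = 5.09e-06). H2 genes are close copies of each other, so values of single members are uncertain.

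**Figure D4:**
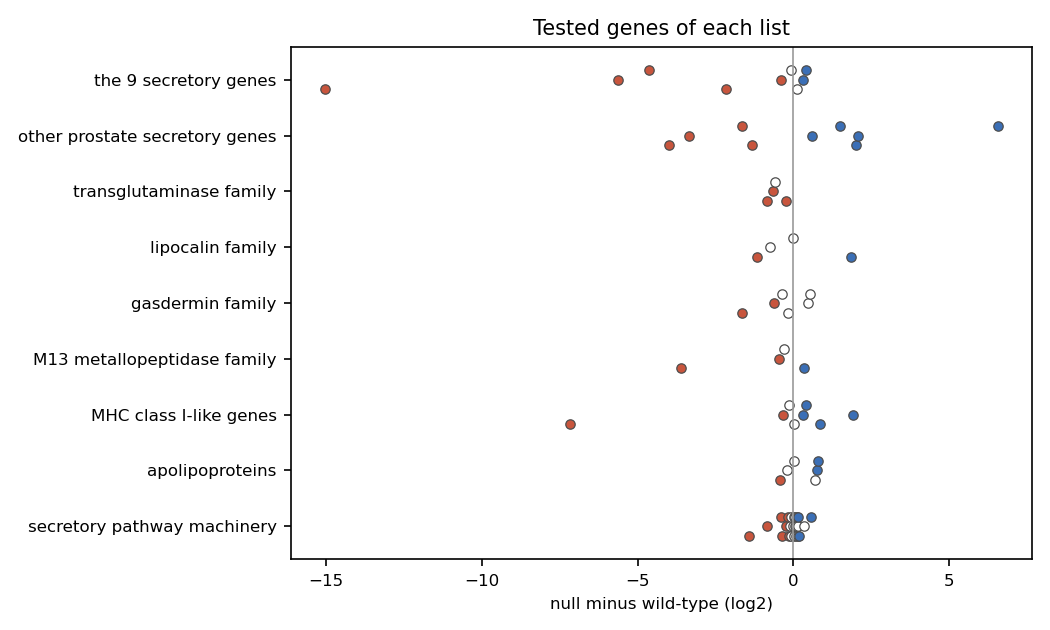
Null minus wild-type difference (log2) of every tested gene of the 9 secretory genes and of each related list; filled points were called over 12 libraries (red lower, blue higher) and open points were not. The secretory pathway machinery spreads from -1.43 (Creb3l4) to 0.56 (Pdia4) with a median of 0.03. The other prostate secretory genes spread from -4.00 to 6.59 (Wfdc15b, near the floor in wild-type libraries).

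Marker genes give the cell makeup beside these results. In bulk tissue, fewer cells of a type and less RNA per cell cannot be told apart. Of 9 luminal markers 3 were higher, 5 lower and 1 not called, with a median of -0.30. Over set means 1 was higher and 2 were lower. Their summed share went from 0.390% to 0.433% in wild-type to 0.303% to 0.363% in null libraries. Among them Hoxb13, a prostate homeobox factor, and Cd24a, an epithelial surface protein, differed by -0.62 and -0.80 (limma adjusted p = 3.85e-06 and 5.26e-06). Of 6 basal markers 5 were higher (median 0.88), 3 of them also over set means, including Trp63 by 1.16, and their share went from 0.0153% to 0.0169% up to 0.0193% to 0.0277%. The defining luminal markers Krt8 and Krt18 were far above the floor in all 12 libraries, with differences of -0.44 and -0.30 that were not called over set means (limma adjusted p = 0.102 and 0.164).

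Transcripts of the seminal vesicle, a separate gland next to the anterior prostate, differed between genotypes and also between library sets. All 9 tested markers were higher in null libraries, 6 of them also over set means, and Svs1 was not tested. Their summed share was 0.00145% to 0.0199% in wild-type and 0.608% to 6.91% in null libraries. By library it was 1.85%, 6.91%, 0.608%, 1.30%, 4.62% and 0.987% in null libraries 1 to 6. Svs4 had a log2 difference of 11.71 (limma adjusted p = 1.32e-06), from 3.75 to 5.52 in wild-type libraries to 12.38 to 18.20 in null libraries. The order of the null libraries differed between markers, since null library 1 was the lowest for Svs4 (12.38) and not in the summed share, and null library 3 was the lowest for Svs2 (11.62). The part of seminal vesicle tissue in the values of the 9 genes was not tested.

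Markers of further cell types were counted as well. Smooth muscle markers were not called (0 of 5) and 1 of 5 fibroblast markers, Dcn, differed by -0.32 (limma adjusted p = 0.00689). Over set means 0 of either list were called (for Dcn adjusted p = 0.216). Of 5 adipocyte markers 2 were called higher over 12 libraries, Plin1 (1.31) and Cfd (1.90). Neither was called over set means (limma adjusted p = 0.0568 and 0.159), where Lep was the 1 called marker, nor in the exact permutation test (adjusted p = 0.071 and 0.0609) or with no filter. The difference of Cfd was 0.88 without wild-type libraries 4 to 6 and 2.91 without wild-type libraries 1 to 3, and that of Plin1 was 0.84 and 1.77. Of 3 tested urothelial markers 2 were higher, also over set means, Upk2 by 2.81 and Upk1b by 1.45, and their share was 0.0330% to 0.0365% in wild-type and 0.0521% to 0.107% in null libraries. All 6 myeloid and all 3 B cell markers were lower over 12 libraries, with 1 and 2 of them called over set means. C1qc, a complement chain of macrophages, differed by -1.26, or by -0.83 without wild-type libraries 1 to 3 and -1.68 without wild-type libraries 4 to 6. Ms4a1, the B cell antigen CD20, differed by -1.90. The part of these cells in the values of the 9 genes was not tested.

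The genes whose profiles were most like those of the 9 were found by the root-mean-square distance over the 12 libraries, after each gene was centred on its wild-type mean. This distance depends mostly on the size of the difference. Nearest to Sbp was Mug1, 4.17 away, with a log2 difference of -9.19, followed by Abpd at 5.09 and Gm4684 at 5.17. These 3 genes were at the floor in null libraries, with means of 3.16, 3.09 and 2.70, as Sbp nearly was. Msmb was 0.36 from BB123696, 0.37 from Ms4a5 and 0.53 from Nupr1. Among the genes nearest to Sbpl were C2cd4a and Lrrc52, both 0.74 away. Pbsn was 0.15 from Ggta1, 0.16 from Paqr8 and 0.18 from Rhbg. Nearest to the retained genes were Klhl5 for Tgm4 (0.045), Nucb1 for Azgp1 (0.048), Bcl3 for Apof (0.087), Myo1d for Gsdma (0.082) and Golm1 for Mme (0.137).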

How the data were processed

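The deposited table held log2 values per gene that the authors had normalised, with no counts, on build mm9. CASAVA 1.8.2, TopHat2 2.0.4, Cufflinks 2.0.2 and DESeq are named without roles per the submitters' processing notes. Libraries were made with Illumina TruSeq kits, per the labels' protocols. The sources used here do not state the exact transformation, and the depth is unknown, so no count test was used. The tests were run on these values without change, using limma 3.58.1 (R 4.3.3, mean-variance trend, robust moderation, genotype only, all 12 libraries), over the 15096 of 23284 genes that reached 4 in 6 or more libraries, and p-values were adjusted by Benjamini-Hochberg over all of them, threshold 0.05. A second fit used the means of the 4 library sets. The fit was tested on simulated data. Promoters are from RefSeq (GRCm38.p6). The text names all 9 genes, up to 3 called genes of each list by adjusted p (the 2 of highest mean where fewer than 2 were called), and the nearest profiles; other genes named were chosen after their values were seen. The 9 genes, the lists and the library sets were chosen with earlier results of these data known. The level of the targeted gene and some genes that the naming rule selects are not reported here. Alternatives were another scaling, filter or test, and leaving out libraries or sets; leaving out null libraries 5 and 6 was added after seeing the data.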

Additional observations from a re-analysis of the deposited data

Results flagged for a closer look

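Values of 54 named genes were screened for a library far from the other 5 of its genotype (Dixon's criterion at 95%). Of 108 groups 7 stood out, where chance gives about 1 in 20, or 5.4. Among the 9 secretory genes 1 did: Sbpl in null library 4, at 2.20 against 3.103 to 3.61 in the other null libraries, all of them near the floor. In null library 1, Svs3a stood at 10.04 against 13.42 to 15.00 and Svs4 at 12.38 against 16.08 to 18.20, both seminal vesicle genes, and Ms4a1 was high at 4.90 against 4.01 to 4.28. In null library 2, Cfd was low at 4.91 against 7.54 to 8.98. Dsc3 was high in null library 3, at 5.64 against 5.25 to 5.38, and Ece2 was low in wild-type library 4, at 7.09 against 7.42 to 7.60.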

How the results depend on the processing

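Over 24 alternatives Sbp (-15.24 to -14.56), Sbpl (-5.01 to -4.28), Msmb (-5.86 to -5.37) and Pbsn (-2.22 to -2.11) were called each time, Tgm4 in 21, Azgp1 in 20, Mme in 10, and Apof and Gsdma in 1 each. Tgm4 was not called after quantile normalization, over set means (adjusted p = 0.285) or without wild-type libraries 4 to 6 (limma adjusted p = 0.066). Of the 9 genes, 4 to 6 were called lower under every alternative. The count called higher was 2 and became 0 after quantile normalization, over set means and without null libraries 3, 4 and 6. It was 1 with no filter, in the exact permutation test, without wild-type libraries 1 to 3 or 4 to 6, and without null libraries 5 and 6, and 1 to 2 with each single library left out; it was 1 without wild-type library 1 or 3 or null library 1, 3, 4 or 6, where Mme was not called. Directions reversed for genes that were not called: Apof (-0.21) and Gsdma (0.10) without wild-type libraries 4 to 6, Gsdma (0.17) without null libraries 1, 2 and 5, Gsdma2 (-0.032) and Col1a2 (-0.16) without wild-type libraries 1 to 3, Col1a2 (-0.013) and Myh11 (-0.057) after quantile normalization, Myh11 (-0.034) without null libraries 1, 2 and 5 and Tagln (0.079) without null libraries 3, 4 and 6. The cause was not tested. Of the 42 other named genes called, 0 reversed, and 930 of 1002 values kept the call. Of 207 counts of called list genes, 195 stayed within 1.5 times, and 6 of the 12 that moved did so over set means. Scaling moved the median of all genes by less than 0.1. No paired analysis was possible because the labels give no replicate numbers that are shared between genotypes. Depth is unknown, and values near the floor limit the size given for Sbp and Sbpl.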

Other observations

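Sbpl and Gsdma2, a gasdermin gene chosen after its values were seen, had wide ranges among wild-type libraries that were otherwise alike. Within wild-type libraries 1 to 3 the range of Sbpl was 2.06, the 4th largest of 15096 tested genes, and within 4 to 6 it was 1.77, again the 4th largest, while the median gene had 0.152 in both. Gsdma2 had 1.87 and 1.24, the 5th and 28th largest. Its log2 values were 4.33, 4.29, 6.16, 6.27, 6.43 and 5.19 in wild-type libraries 1 to 6, so the libraries with its 3 highest values, 3, 4 and 5, were those with the 3 highest values of Sbpl. In null libraries 1 to 6 it had 6.39, 5.82, 5.44, 5.56, 6.39 and 5.98, with no call between genotypes (log2 difference 0.48, limma adjusted p = 0.316). Both genes have close copies: 11.2% of the 25-base stretches of Gsdma2 transcripts occur in Gsdma, against 52.0% of those of Sbpl in Sbp. Gsdma and Sbp themselves varied by 0.07 and 0.08 within wild-type libraries 1 to 3. Whether the counting of shared reads has a part in this was not tested.

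For the retained genes, Msmb and Pbsn, null libraries 5 and 6 had values near the equal mix of their neighbours, as they did over all genes. Sbp and Sbpl, near the floor in null libraries, lay up to 0.66 from the mix. Tgm4 in null library 6 was 19.35 where the mix of null libraries 3 and 4 gave 19.35, and Gsdma was 14.21 in both. Mme in null library 5 was 13.60 where the mix of null libraries 1 and 2 gave 13.65. Without null libraries 5 and 6 the difference of Tgm4 was -0.40 (limma adjusted p = 0.00893) and that of Azgp1 0.33 (adjusted p = 0.0311), while Mme (0.42) was not called (adjusted p = 0.0725).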
